A study of Homo sapiens with 12 samples.

Results

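The genes described here are 10 that serve protein folding and quality control in the endoplasmic reticulum (ER), of 19775 genes measured on the arrays: HSPA5, HSP90B1, PDIA4, DNAJB9, SDF2L1, CALR, CANX, HERPUD1, EDEM1 and XBP1. They were named from their known function in the unfolded protein response, with earlier results of these data already known, so their counts are descriptions. Each was read from the probe set, among those annotated to that symbol alone, with the highest mean over the 11 arrays compared; the 10 genes had 23 such probe sets, between 1 and 5 each. The study asked how inhibition of the kinase Wee1 and inhibition of the chaperone Hsp90 act alone and together on cells labelled PC3, a prostate cancer line. Cells of the combined group received Wee1 inhibitor II at 2.5 µM and, 24 h later, 17-AAG, an Hsp90 inhibitor, at 40 nM (3 arrays). A second group received the Wee1 inhibitor alone at 2.5 µM (3 arrays), and another 17-AAG alone at 40 nM (3 arrays). The control cells are called untreated in the design text, while the treatment protocol gives them vehicle (3 arrays, of which 2 were compared). All cells were harvested 48 h after the 17-AAG step, and 100 ng of RNA was labelled for each array.

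Proteins that enter the secretory pathway fold in the ER with the help of chaperones, disulfide isomerases and lectins that hold glycoproteins until they mature. When unfolded protein accumulates, the sensors IRE1, PERK and ATF6 signal to the nucleus. IRE1 splices the XBP1 mRNA and ATF6 is cut to a transcription factor, and both raise genes of folding and of ER-associated degradation. PERK slows translation and favours synthesis of ATF4, which raises genes of amino acid supply and, when stress lasts, of cell death. 17-AAG binds the nucleotide pocket of Hsp90 proteins, a pocket that the ER member HSP90B1 shares.

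The factors that carry this response bind ER stress elements in promoters. ERSE was searched as CCAAT, then 9 bases of any kind (N), then CCACG, and ERSE-II as ATTGG, 1 base N and CCACG. Both were searched on both strands, with no mismatch, from 250 bases before to 50 bases after the transcript start listed first for each gene among the RefSeq promoters (GRCh38.p14); all 10 genes were matched by symbol. That start is the outer end of the RefSeq gene for 8 of them, lies 15 bases from it for PDIA4, and for CANX lies 20273 bases inside the gene, whose outermost start was not searched. ERSE lay in 5 of the 10 windows (HSPA5, HSP90B1, XBP1, CANX and CALR), against 22 of 27305 RefSeq promoters (0.0806%). ERSE-II lay in 2 of the 10 (HERPUD1 and SDF2L1), against 15 of 27305 (0.0549%). The XBP1-site core TGACGTG lay in 0 of the 10 and in 546 of the 27305 (2%). ATTGG is CCAAT read on the other strand, and the core can share letters with CCACG read there, so the motifs can overlap. DNAJB9, EDEM1 and PDIA4 held none of the 3 sequences. These counts describe letters in a window, not binding. The 10 genes were named for their known function in this response, so the shares are no test of enrichment. The sequences of 4 promoters follow, 5′ to 3′ on the gene's strand, with the fixed letters of the element in capitals. HERPUD1 and SDF2L1 are shown because they carry the same element and moved in opposite directions, HSPA5 as the classical bearer of ERSE, and XBP1 as the transcription factor itself. HERPUD1 is at chr16:56931892-56932191 (plus strand, element at -117 to -107), SDF2L1 at chr22:21642052-21642351 (plus strand, element on the opposite strand at -188 to -178), HSPA5 at chr9:125241294-125241593 (minus strand, element at -66 to -48) and XBP1 at chr22:28800520-28800819 (minus strand, element at -52 to -34).
HERPUD1: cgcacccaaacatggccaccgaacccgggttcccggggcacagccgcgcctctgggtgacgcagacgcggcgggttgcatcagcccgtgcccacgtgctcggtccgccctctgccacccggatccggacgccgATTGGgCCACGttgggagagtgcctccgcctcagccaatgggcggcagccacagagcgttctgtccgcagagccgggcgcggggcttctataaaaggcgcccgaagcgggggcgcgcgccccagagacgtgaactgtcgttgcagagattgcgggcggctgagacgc
SDF2L1: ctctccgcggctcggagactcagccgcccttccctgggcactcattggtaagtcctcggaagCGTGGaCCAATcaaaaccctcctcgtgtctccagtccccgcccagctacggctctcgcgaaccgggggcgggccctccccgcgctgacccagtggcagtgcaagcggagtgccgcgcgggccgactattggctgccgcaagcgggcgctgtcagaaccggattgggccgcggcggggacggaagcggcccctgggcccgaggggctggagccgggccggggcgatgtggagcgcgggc
HSPA5: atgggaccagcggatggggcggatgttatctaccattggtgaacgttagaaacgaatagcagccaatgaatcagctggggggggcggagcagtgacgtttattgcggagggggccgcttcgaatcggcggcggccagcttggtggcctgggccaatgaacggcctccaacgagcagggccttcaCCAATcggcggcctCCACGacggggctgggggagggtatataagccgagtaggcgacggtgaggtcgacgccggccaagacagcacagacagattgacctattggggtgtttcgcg
XBP1: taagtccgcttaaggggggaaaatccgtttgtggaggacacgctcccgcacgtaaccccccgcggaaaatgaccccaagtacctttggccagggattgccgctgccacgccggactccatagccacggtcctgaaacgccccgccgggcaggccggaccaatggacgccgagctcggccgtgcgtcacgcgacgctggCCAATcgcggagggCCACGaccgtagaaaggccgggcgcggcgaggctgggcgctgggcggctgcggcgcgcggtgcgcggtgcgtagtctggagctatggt

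The arrays went against their label, which bears on every result below. On all 11 arrays compared, the melanocyte genes MLANA (signal 2865 to 9916) and TYRP1 (11119 to 15390.0) were bright, as were CTNNA1 (2559 to 5039.7) and STAT3 (819 to 1296), which PC3 cells are known to lack. The control replicate 2 array had signals of 2.67 for MLANA, 1.57 for CTNNA1 and 7.54 for STAT3, while the prostate gene HOXB13 had 2087 there and at most 11.3 elsewhere. EPCAM (1096.5), KRT8 (615) and KRT18 (2238) were also brighter there than elsewhere. Of the PC3 or prostate markers, ESRP1 went the other way (48.5 against 142 to 728). CDH1, KRT19, CLDN4 and KLK3 on that array lay within the range of the others. Correlations of log2 signals between arrays, over all probe sets, were 0.825 to 0.833 between that array and the others, 0.924 to 0.936 within groups and 0.913 to 0.929 between groups. The authors set that array aside for weak signal, and the results below leave it out unless it is named. The cells of the other 11 arrays are therefore called by their treatment, and not PC3. Summed signals of the 14 pigment-cell markers measured were 62748 to 63614 with both drugs, 35477 to 38156 with the Wee1 inhibitor, 56679 to 62005 with 17-AAG and 44329 to 46047 in controls. Those of 14 PC3 or prostate markers were 791 to 1508 on these arrays and 6446 on control replicate 2. Those of 8 fibroblast markers were 795 to 882 with both drugs, 466 to 517 with the Wee1 inhibitor, 1808 to 1955 with 17-AAG and 1112 to 1267 in controls. LUM alone made up most of these fibroblast sums (294 to 1819), and the brightest other marker, COL1A1, read at most 109, so they mainly follow 1 gene. Summed signals of 5 blood markers were 56.6 to 90.9 on these arrays. Their part in the results was not tested. DNAJB1, a cytosolic gene that Hsp90 inhibition is known to raise, was lower with 17-AAG (geometric mean signal 510.0) than in control cells (1192), a log2 fold change of -1.22 ± 0.09 (SE, limma adjusted p = 0.000375).

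No joint rise of the 10 genes was seen with either drug or with both. Against control cells, 2 genes rose and 2 fell with both drugs (HERPUD1 and XBP1; SDF2L1 and EDEM1). With the Wee1 inhibitor 3 rose and 1 fell (HERPUD1, XBP1 and DNAJB9; SDF2L1). With 17-AAG 2 rose and 1 fell (HERPUD1 and DNAJB9; HSPA5). HSP90B1, PDIA4, CALR and CANX passed in none of the 7 comparisons on their main probe sets, though dimmer CALR and CANX ones passed in some. This balance depended on the scaling: with each array centred on its median, 1 rose and 4 fell with both drugs (HERPUD1; SDF2L1, EDEM1, HSPA5 and CANX) and 1 rose and 4 fell with the Wee1 inhibitor (HERPUD1; SDF2L1, EDEM1, CALR and CANX), while 2 rose and 1 fell with 17-AAG. A gene passed at a limma p below 0.05 after Benjamini-Hochberg adjustment over all 19775 genes, and a log2 fold change is given with the standard error of that fit.

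The counts are read against the shares called among all genes, which were large. With both drugs 16.7% of all genes were called higher and 11.3% lower than in control cells; among the 3621 genes with a mean signal of at least 500, which 9 of the 10 genes reach, the shares were 25.4% and 27.1%. With the Wee1 inhibitor 14.5% of all genes were higher and 10.3% lower, and 22.3% and 26.3% of the bright genes. With 17-AAG the shares were 9.93% and 6.8% of all genes, and 18.5% and 16% of the bright genes. The median log2 fold change of the 10 genes was -0.04 with both drugs, 0.07 with the Wee1 inhibitor and 0.09 with 17-AAG, against 0.11, 0.12 and 0.01 over all genes. All 3 comparisons share the same 2 control arrays. The labels do not tell whether replicates came from separate cultures; the p-values measure the spread between these arrays, which may be technical. In such bulk samples fewer cells of a type and less RNA per cell cannot be told apart. Centring each array on its median changed the balance of calls over all genes, to 1999 higher and 3126 lower with both drugs (3306 and 2233 as deposited) and to 1587 and 3064 with the Wee1 inhibitor (2877 and 2045 as deposited).

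**Figure D1:**
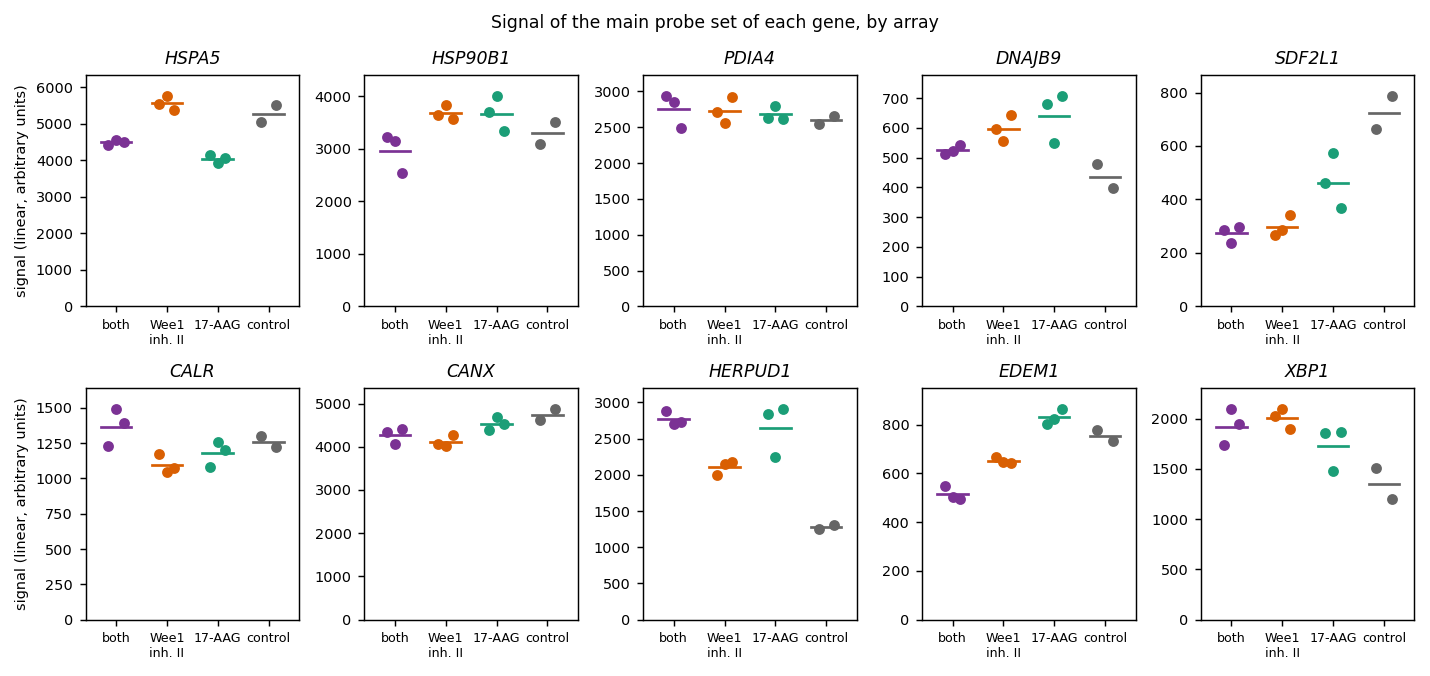
Signal of each gene's main probe set (linear, arbitrary units, y axis from 0) on the 11 arrays compared, by treatment group; points are arrays and bars are geometric means. HERPUD1 lay at 1994 to 2910.0 on all treated arrays, against 1253 and 1308 in controls. SDF2L1 had its lowest mean with both drugs, where its arrays (238 to 298) overlapped those with the Wee1 inhibitor (269 to 342).

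**Figure D2:**
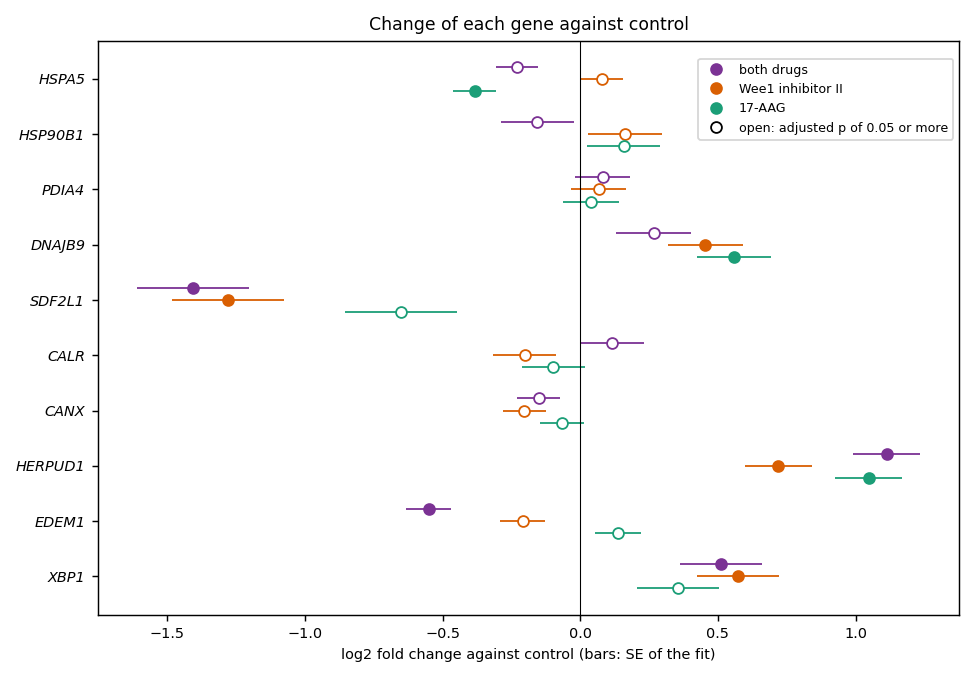
Log2 fold change of each gene against control cells with both drugs, with Wee1 inhibitor II and with 17-AAG; bars are standard errors of the fit and filled points passed at an adjusted p below 0.05. HERPUD1 (1.11, 0.72 and 1.05) and SDF2L1 (-1.41, -1.28 and -0.65) lie farthest from 0, on opposite sides.

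HSPA5 encodes BiP, the Hsp70 chaperone of the ER lumen, which also holds the stress sensors inactive and is the usual marker of ER stress. Its signals were 4429, 4571 and 4504 with both drugs, 5549, 5775 and 5388 with the Wee1 inhibitor, 4159, 3919.6 and 4062 with 17-AAG, and 5049.7 and 5517 in control cells. All 17-AAG arrays and all combination arrays lay below both controls, and the Wee1 inhibitor arrays overlapped the controls. HSPA5 fell by 0.38 ± 0.08 on the log2 scale with 17-AAG (limma adjusted p = 0.0128). The difference with both drugs was -0.23 ± 0.08 (limma adjusted p = 0.0618), and after centring each array on its median it was -0.44 and called (limma adjusted p = 0.0130). That with the Wee1 inhibitor was 0.08 ± 0.08 (95% interval -0.10 to 0.26), and -0.14 after centring. Between the single drugs, HSPA5 was higher with the Wee1 inhibitor than with 17-AAG by 0.46 ± 0.07 (limma adjusted p = 0.00274). The call with 17-AAG was lost without control replicate 3 (-0.32, limma adjusted p = 0.0922). The log2 gap between the 3′ and 5′ probe sets of ACTB, a sign of RNA integrity, was 0.96 ± 0.05 with both drugs, 0.68 ± 0.09 with the Wee1 inhibitor, 0.96 ± 0.08 with 17-AAG (SD, n = 3 each) and 0.69 ± 0.03 in controls (SD, n = 2), so it split the groups as HSPA5 did. The same gap of GAPDH averaged -0.01, -0.05, -0.04 and -0.06 in the same order and did not split them so; the part of RNA integrity was not tested.

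A second, dimmer HSPA5 probe set gave another picture. Its signals were 426, 402 and 384 with both drugs, 418, 385 and 378 with the Wee1 inhibitor, 318, 272 and 260.2 with 17-AAG, and 308 and 278 in control cells. Here the arrays with the Wee1 inhibitor, alone or combined, all lay above every 17-AAG and control array. Its log2 fold change was 0.46 ± 0.12 with both drugs (limma adjusted p = 0.0286 over all probe sets) and 0.43 ± 0.12 with the Wee1 inhibitor (limma adjusted p = 0.0463), both in the direction of a rise. With 17-AAG it was -0.05 ± 0.12 (limma adjusted p = 0.866), so the fall called on the main probe set was not seen here. Only the higher level with the Wee1 inhibitor than with 17-AAG was called by both probe sets (0.46 and 0.48).

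**Figure D3:**
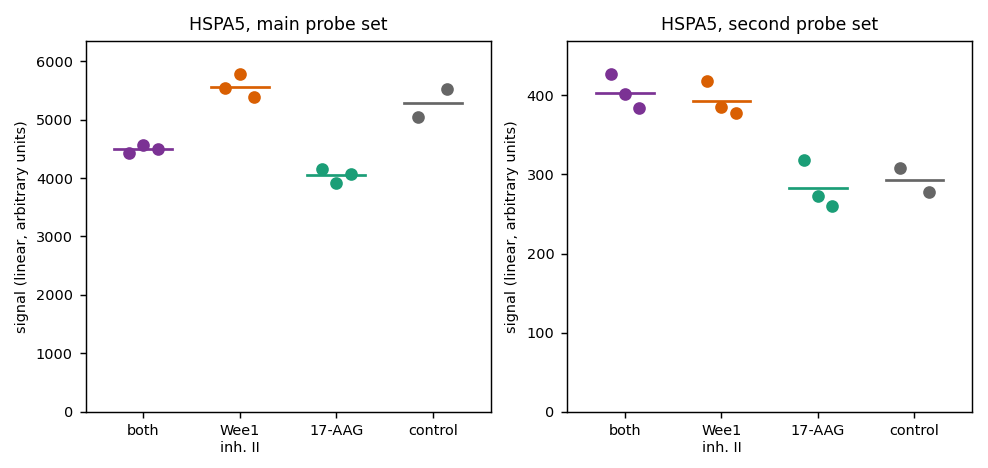
Signal (linear, arbitrary units, y axes from 0) of the 2 HSPA5 probe sets on each array, by treatment group; bars are geometric means. With both drugs the main probe set read 4429 to 4571, below the controls at 5049.7 and 5517, while the second read 384 to 426, above the controls at 308 and 278.

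HSP90B1 encodes GRP94, the Hsp90 of the ER and itself a protein that 17-AAG can bind. Its signals were 3221, 3157 and 2542 with both drugs, 3645, 3839.6 and 3579 with the Wee1 inhibitor, 3703, 4015 and 3332 with 17-AAG, and 3084 and 3517 in control cells. The Wee1 inhibitor arrays all lay above the controls, with a log2 difference of 0.16 that was -0.06 after centring each array on its median, and the other groups overlapped the controls. The log2 fold change with 17-AAG was 0.16 ± 0.13 (95% interval -0.15 to 0.46, limma adjusted p = 0.516), so a rise of more than 0.46 lay outside the interval. Its probe sets with 1 symbol can cross-hybridise, by their design suffix, and those that also list MIR3652 were not used. Its cytosolic relatives HSP90AA1 and HSP90AB1 differed from control cells by -0.10 and -0.28 with 17-AAG, neither called.

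PDIA4 encodes ERp72, a disulfide isomerase. It had 2942, 2852 and 2496 with both drugs, 2712, 2559.6 and 2926 with the Wee1 inhibitor, 2624, 2793 and 2623 with 17-AAG, and 2551 and 2661 in control cells. All groups overlapped, and the log2 fold changes of 0.08, 0.07 and 0.04 against control had 95% intervals between -0.19 and 0.31. After centring each array on its median the first of these was -0.13 and that with the Wee1 inhibitor -0.15.

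DNAJB9 encodes ERdj4, a J-domain co-chaperone of BiP that is among the best known XBP1 targets. Its signals were 511, 521 and 541 with both drugs, 595, 555 and 642 with the Wee1 inhibitor, 679, 548 and 708 with 17-AAG, and 477 and 398 in control cells. Every treated array lay above both controls. DNAJB9 rose by 0.56 ± 0.14 with 17-AAG (limma adjusted p = 0.0263) and by 0.45 ± 0.14 with the Wee1 inhibitor (limma adjusted p = 0.0429), and was 0.27 ± 0.14 with both drugs (limma adjusted p = 0.202). Without control replicate 3 both calls were lost, at 0.43 with 17-AAG and 0.32 with the Wee1 inhibitor. Leaving out 17-AAG replicate 1 or 3 also ended the first call (0.52 and 0.49), and the second held on leaving out only 2 of the 11 arrays. Centring each array on its median ended the second call too (0.23). The dimmer DNAJB9 probe sets were not called. The brighter of them gave 0.29 with 17-AAG, 0.34 with the Wee1 inhibitor and 0.19 with both drugs, and its control replicate 1 (327) lay above every treated array. The dimmest gave 0.28, -0.08 and -0.16 in the same order.

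SDF2L1 encodes a small lumenal protein that works with the BiP co-chaperone DNAJB11, and is commonly raised by ER stress. It had 287, 238 and 298 with both drugs, 269, 287 and 342 with the Wee1 inhibitor, 461, 575 and 369 with 17-AAG, and 663 and 788 in control cells. All 9 treated arrays lay below both controls, and the Wee1 inhibitor and combination arrays lay below all 17-AAG arrays. SDF2L1 fell by 1.41 ± 0.20 with both drugs (limma adjusted p = 0.00129) and by 1.28 ± 0.20 with the Wee1 inhibitor (limma adjusted p = 0.00266). With 17-AAG its log2 fold change was -0.65 ± 0.20 (limma adjusted p = 0.0656), and without 17-AAG replicate 2 it was -0.81 (limma adjusted p = 0.0270). Leaving out each array in turn kept both calls, with values of -1.53 to -1.28 with both drugs and -1.40 to -1.15 with the Wee1 inhibitor. Its signal on control replicate 2 was 364, within the range of the treated arrays; with that array included the value with the Wee1 inhibitor was -0.95 (limma adjusted p = 0.0907). Its partner DNAJB11 fell by 0.64 ± 0.11, 0.59 ± 0.11 and 0.43 ± 0.11 with both drugs, the Wee1 inhibitor and 17-AAG.

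CALR and CANX encode calreticulin and calnexin, the soluble and the membrane-bound lectin that retain glycoproteins for folding. CALR had 1227, 1492 and 1389.6 with both drugs, 1175, 1046 and 1072 with the Wee1 inhibitor, 1079, 1259 and 1204 with 17-AAG, and 1298 and 1223 in control cells. The Wee1 inhibitor arrays lay below both controls, and the difference, -0.20 ± 0.11, was not called (limma adjusted p = 0.266). After centring each array on its median it was -0.42 (limma adjusted p = 0.0151), and the difference with both drugs, 0.12 as deposited, was -0.10. Its other 2 probe sets were called lower with the Wee1 inhibitor, at -0.88 ± 0.24 and -0.50 ± 0.13 (limma adjusted p = 0.0361 and 0.0368 over all probe sets). The second of these was also called higher with both drugs than with the Wee1 inhibitor (0.47 ± 0.12, limma adjusted p = 0.0447). That probe set and the main CALR one can cross-hybridise, by their design suffix. CANX had 4345, 4070.1 and 4404 with both drugs, 4062, 4021 and 4282 with the Wee1 inhibitor, 4395, 4682 and 4524 with 17-AAG, and 4616 and 4875 in control cells. The combination and Wee1 inhibitor arrays lay below both controls. The differences were -0.15 ± 0.08, -0.20 ± 0.08 and -0.07 ± 0.08 on the log2 scale, with 0 called (limma), and after centring each array on its median those with both drugs (-0.37, limma adjusted p = 0.0400) and with the Wee1 inhibitor (-0.42, limma adjusted p = 0.0242) passed. A dimmer CANX probe set was called lower with the Wee1 inhibitor than with 17-AAG (-0.48 ± 0.11, limma adjusted p = 0.0237 over all probe sets).

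HERPUD1 encodes a membrane protein that gathers the HRD1 ubiquitin ligase complex, through which misfolded proteins leave the ER. It showed the largest rise of the 10 genes in each comparison with control. Its signals were 2881, 2699.6 and 2731 with both drugs, 1994, 2155 and 2179 with the Wee1 inhibitor, 2837, 2244 and 2910.0 with 17-AAG, and 1253 and 1308 in control cells. No treated array came near the controls, and the 17-AAG arrays overlapped the combination arrays. HERPUD1 rose by 1.11 ± 0.12 with both drugs (2.16-fold, limma adjusted p = 0.000312), by 0.72 ± 0.12 with the Wee1 inhibitor (1.65-fold, limma adjusted p = 0.00355) and by 1.05 ± 0.12 with 17-AAG (2.07-fold, limma adjusted p = 0.00152). These 3 calls held on leaving out each array in turn. A fit on the 17-AAG and control arrays alone gave the same 1.05 with a limma adjusted p of 0.0717. The second HERPUD1 probe set was near background on all arrays (1.29 to 11.0) and averaging the probe sets ended the calls.

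EDEM1 encodes a mannosidase-like protein that draws misfolded glycoproteins out of the calnexin cycle toward degradation. It had 548, 503 and 496 with both drugs, 669, 646 and 643 with the Wee1 inhibitor, 803, 823 and 865 with 17-AAG, and 779 and 732 in control cells. The 4 groups did not overlap: the combination was lowest, then the Wee1 inhibitor, then control cells, then 17-AAG. EDEM1 fell by 0.55 ± 0.08 with both drugs (limma adjusted p = 0.00148). The differences with the Wee1 inhibitor (-0.21 ± 0.08, limma adjusted p = 0.106) and with 17-AAG (0.14 ± 0.08, limma adjusted p = 0.334) were not called. After centring each array on its median the value with the Wee1 inhibitor was -0.43 (limma adjusted p = 0.0132), and without the dimmest 40% of genes its call passed too (limma adjusted p = 0.0413). The signal on control replicate 2 was 408, below all 11 other arrays, and with that array included the value with both drugs was -0.25 (limma adjusted p = 0.543).

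XBP1 encodes the transcription factor whose mRNA IRE1 splices; the probe set reads both forms together, so splicing was not measured. Its signals were 1735, 2093 and 1948 with both drugs, 2023, 2097 and 1896 with the Wee1 inhibitor, 1858, 1475 and 1867 with 17-AAG, and 1506 and 1205 in control cells. The combination and Wee1 inhibitor arrays lay above both controls, and 17-AAG replicate 2 lay between the controls. XBP1 rose by 0.51 ± 0.15 with both drugs (limma adjusted p = 0.0349) and by 0.57 ± 0.15 with the Wee1 inhibitor (limma adjusted p = 0.0244), and was 0.35 ± 0.15 with 17-AAG (limma adjusted p = 0.161). Without control replicate 3 neither rise was called (0.35 and 0.41), and after centring each array on its median neither was (0.30 and 0.35). Leaving out Wee1 inhibitor replicate 1 or 2 ended the call with the Wee1 inhibitor (0.57 and 0.54), and leaving out Wee1 inhibitor replicate 1 or 3 or combination replicate 2 or 3 ended that with both drugs (0.51, 0.51, 0.45 and 0.50).

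The treated groups were also set against each other, which asks whether the second drug moved these genes beyond the first. Against 17-AAG alone, both drugs gave 0 genes higher and 2 lower on the main probe sets, where 10.9% of all genes were higher and 8.43% lower. EDEM1 fell by 0.69 ± 0.07 (limma adjusted p = 0.000547) and SDF2L1 by 0.76 ± 0.18 (limma adjusted p = 0.0221). The EDEM1 call held on leaving out each array in turn, while the SDF2L1 call was lost without 17-AAG replicate 1 or 2 (-0.76 and -0.59) and without combination replicate 1 or 2 (-0.79 and -0.66). Centring each array on its median raised the count to 4 lower, and turned 2148 higher and 1668 lower calls over all genes into 917 and 2481. The second HSPA5 probe set was called higher here (0.52 ± 0.11, limma adjusted p = 0.0183 over all probe sets). The main HSPA5 one was not (0.15 ± 0.07, limma adjusted p = 0.180), while the mean of both was (0.33, limma adjusted p = 0.0393).

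Against the Wee1 inhibitor alone, both drugs gave 1 gene higher and 2 lower, where 7.27% of all genes were higher and 6.84% lower. HERPUD1 was higher by 0.39 ± 0.11 (limma adjusted p = 0.0472), HSPA5 fell by 0.31 ± 0.07 (limma adjusted p = 0.0216) and EDEM1 fell by 0.34 ± 0.07 (limma adjusted p = 0.0171). The HERPUD1 call held on leaving out only 1 of the 11 arrays, with values of 0.35 to 0.42. The HSPA5 call held on leaving out 6 of them (-0.33 to -0.28) and the EDEM1 call on leaving out 8 (-0.38 to -0.31). The second HSPA5 probe set gave 0.04 ± 0.11 here and was not called.

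Between the single drugs, the Wee1 inhibitor gave 1 gene higher and 2 lower than 17-AAG, where 10.2% of all genes were higher and 8.52% lower. HSPA5 was the higher one. EDEM1 was lower by a log2 difference of -0.35 ± 0.07 (limma adjusted p = 0.0130) and SDF2L1 by -0.63 ± 0.18 (limma adjusted p = 0.0461), the SDF2L1 call holding on leaving out only 1 of the 11 arrays (-0.79 to -0.47). With each array centred on its median, 0 were higher and 5 lower, HSPA5 no longer passing (0.26, limma adjusted p = 0.0872), and 2011 higher and 1685 lower calls over all genes became 907 and 2603.

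The interaction asks whether the change with both drugs differs from the sum of the single-drug changes on the log2 scale. It was negative and called for 3 genes and positive and called for 0, where 6.97% of all genes had a negative and 4.82% a positive one. DNAJB9 rose with each single drug but had 511 to 541 with both, and its interaction was -0.74 ± 0.18 (limma adjusted p = 0.0358). The dimmer DNAJB9 probe sets gave -0.44 ± 0.31 and -0.36 ± 0.35, not called. For HERPUD1 the single-drug changes summed to 1.77 against 1.11 with both, an interaction of -0.65 ± 0.16 (limma adjusted p = 0.0378). EDEM1 had -0.07 as the sum against -0.55 with both, an interaction of -0.48 ± 0.11 (limma adjusted p = 0.0285), so the combination took it below both single drugs. SDF2L1 had the largest positive value, 0.53 ± 0.27, which was not called (limma adjusted p = 0.286). All 3 calls were lost without control replicate 3 (DNAJB9 -0.61, HERPUD1 -0.68, EDEM1 -0.43) and with each array centred on its median (-0.71, -0.62 and -0.45). Over the 11 arrays left out in turn, the DNAJB9 and EDEM1 calls held 2 times and the HERPUD1 call 1 time, with values of -0.88 to -0.61, -0.52 to -0.43 and -0.77 to -0.59.

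**Figure D4:**
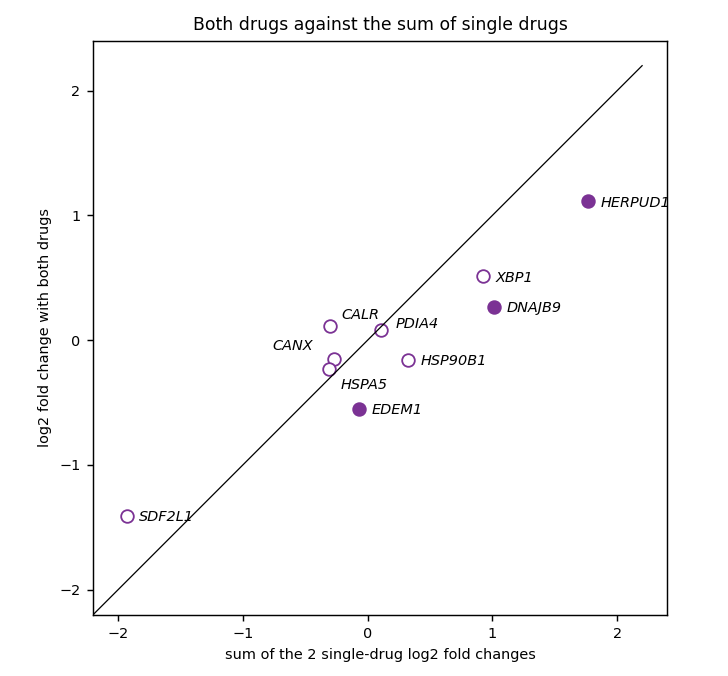
Log2 fold change with both drugs (y axis) against the sum of the 2 single-drug log2 fold changes (x axis) for the 10 genes; the line marks equality and filled points had a called interaction. HERPUD1 (1.77, 1.11), DNAJB9 (1.01, 0.27) and EDEM1 (-0.07, -0.55) lie below the line.

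Other genes of the pathway were read from 7 lists holding 164 measured genes, none of them among the 10. These lists too were chosen with earlier results of these data known. Their counts stand against 16.7% of all genes higher and 11.3% lower with both drugs, 14.5% and 10.3% with the Wee1 inhibitor, and 9.93% and 6.8% with 17-AAG. Among genes with a mean signal of at least 500 these shares were 25.4% and 27.1%, 22.3% and 26.3%, and 18.5% and 16%. With each array centred on its median, calls over all 19775 genes were 1999 higher and 3126 lower with both drugs, 1587 and 3064 with the Wee1 inhibitor, and 1477 and 1101 with 17-AAG. Further ER chaperones, foldases and lectins moved both ways: of 35, 9 rose and 9 fell with both drugs, 6 and 9 with the Wee1 inhibitor, and 3 and 4 with 17-AAG, with medians of 0.06, 0.01 and 0.04. SERPINH1, the collagen chaperone, rose by 2.00 ± 0.10 with both drugs and 1.87 ± 0.10 with the Wee1 inhibitor, and fell by 0.45 ± 0.10 with 17-AAG. MANF, a secreted ER stress protein, fell by 0.94 ± 0.11 with both drugs. FKBP11, a prolyl isomerase, fell by 1.21 ± 0.12 and DNAJC3, a BiP co-chaperone that restrains PERK, by 0.80 ± 0.08 with the Wee1 inhibitor. With each array centred on its median 5 rose and 11 fell with both drugs, 1 and 11 with the Wee1 inhibitor, and 2 and 1 with 17-AAG.

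Of 23 genes of ER-associated degradation, 3 rose and 6 fell with both drugs, 4 and 8 with the Wee1 inhibitor, and 1 and 6 with 17-AAG. HERPUD2, the paralogue of HERPUD1, rose in all 3, by 0.63 ± 0.09, 0.74 ± 0.09 and 0.56 ± 0.09. DERL2, a channel component of the same machinery, fell by 0.82 ± 0.10 with both drugs and 0.79 ± 0.10 with the Wee1 inhibitor. SELENOS, which recruits the VCP ATPase, fell by 0.65 ± 0.09, 0.51 ± 0.09 and 0.50 ± 0.09. With each array centred on its median 2 rose and 7 fell with both drugs, 1 and 10 with the Wee1 inhibitor, and 1 and 4 with 17-AAG.

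Genes of entry into the ER and of export from it were read next. Of 32 genes of the translocon, signal peptidase and glycosylation, 3 rose and 5 fell with both drugs, 3 and 8 with the Wee1 inhibitor, and 1 and 6 with 17-AAG. Centring each array on its median gave 1 and 12 with both drugs, 1 and 12 with the Wee1 inhibitor, and 0 and 5 with 17-AAG, and leaving out each array in turn gave 2 to 6 falls with 17-AAG. SRPRB, a subunit of the signal recognition particle receptor, fell by 0.91 ± 0.09, 1.09 ± 0.09 and 0.63 ± 0.09. SEC61A1, the pore of the translocon, fell by 0.61 ± 0.09 with both drugs and 0.78 ± 0.09 with the Wee1 inhibitor. Of 27 genes of ER to Golgi transport, 7 rose and 5 fell with both drugs, 0 and 7 with the Wee1 inhibitor, and 2 and 2 with 17-AAG. Centring turned the balance with both drugs, to 2 and 7, and gave 0 and 12 with the Wee1 inhibitor and 0 and 1 with 17-AAG; leaving out each array in turn gave 3 to 8 rises with both drugs. SURF4, a cargo receptor, fell by 0.45 ± 0.07 with both drugs and by 0.59 ± 0.07 with the Wee1 inhibitor.

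Among 17 sensors and their processing factors, 6 rose and 1 fell with both drugs, 4 and 1 with the Wee1 inhibitor, and 3 and 1 with 17-AAG. Centring each array on its median turned the balance with both drugs, to 2 and 5, and gave 3 and 2 with the Wee1 inhibitor and 3 and 1 with 17-AAG. ATF6 rose in all 3, by 1.07 ± 0.14, 0.81 ± 0.14 and 1.12 ± 0.14. ERN1, which encodes IRE1, rose by 1.18 ± 0.23 with both drugs and 1.30 ± 0.23 with 17-AAG.

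Genes of the PERK arm and of stress-induced death were mostly higher. Of 16 genes, 12 rose with both drugs, 13 with the Wee1 inhibitor and 13 with 17-AAG, and 0 fell in any of these; the medians were 1.08, 1.39 and 1.63, against 0.11, 0.12 and 0.01 over all genes. ATF4, the factor PERK favours, had geometric mean signals of 8002 with both drugs, 9895 with the Wee1 inhibitor, 7393 with 17-AAG and 4057 in control cells. ASNS, the asparagine synthetase that ATF4 raises, rose by 2.30 ± 0.14 with both drugs, 2.36 ± 0.14 with the Wee1 inhibitor and 1.70 ± 0.14 with 17-AAG. NUPR1, a stress-response regulator, rose by 2.50 ± 0.20, 2.34 ± 0.20 and 1.87 ± 0.20. CHAC1, a glutathione-degrading enzyme, rose by 2.64 ± 0.29 with 17-AAG. The interaction was negative and called for 12 of the 16 genes and positive and called for 0, where 6.97% of all genes had a negative and 4.82% a positive one. For ASNS it was -1.76 ± 0.18 (limma adjusted p = 0.00156). Centring each array on its median gave 10, 11 and 13 rises and 1, 1 and 0 falls. Leaving out each array in turn left 9 to 12, 10 to 13 and 9 to 13 rises, and the fit on the 17-AAG and control arrays alone called 0 genes of any kind. ATF4 also responds to kinases other than PERK, which these data do not separate.

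The last list held 14 genes outside the ER, relatives of HSPA5 and HSP90B1 together with co-chaperones. Of these, 1 rose and 3 fell with both drugs, 1 and 7 with the Wee1 inhibitor, and 0 and 6 with 17-AAG. With each array centred on its median the counts were 0 and 4, 0 and 7, and 0 and 6. DNAJA1, a cytosolic co-chaperone of Hsp70, fell by 1.12 ± 0.13 with 17-AAG. HSPH1, a nucleotide exchange factor of Hsp70, fell by 1.09 ± 0.12 with the Wee1 inhibitor.

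**Figure D5:**
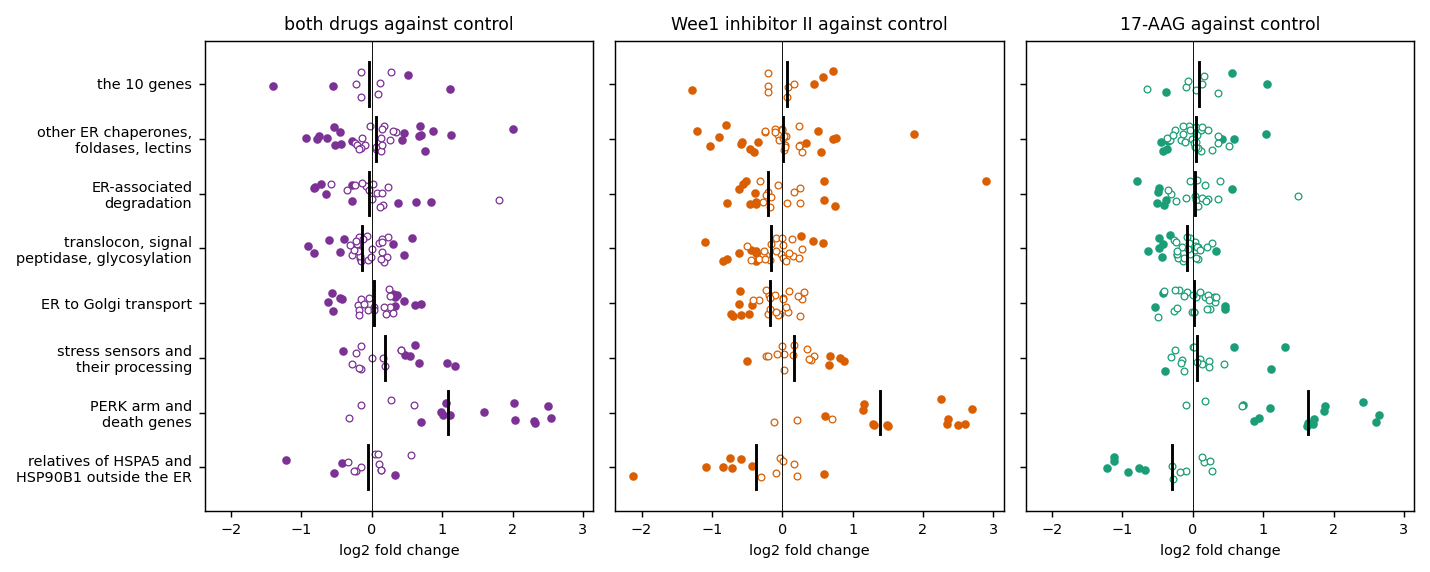
Log2 fold change against control cells (x axes) of the 10 genes and of 7 lists of related genes, with both drugs, Wee1 inhibitor II and 17-AAG; points are genes, filled where called at an adjusted p below 0.05, and black lines are medians. The PERK arm has medians of 1.08, 1.39 and 1.63, and the 10 genes -0.04, 0.07 and 0.09.

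The genes whose profile lay closest to HSPA5 over the 11 arrays were sought among 8277 genes with a mean signal of at least 100, by the root mean square difference of log2 signals after centring each gene. They were EIF3J (0.0557), HEATR1 (0.0621), CTCF (0.0708), DSTN (0.0708) and POLR1E (0.0723). By this measure the nearest of the other 9 ER genes was PDIA4, at rank 1459 (0.213). PDIA4 itself hardly varied (0.08, 0.07 and 0.04 against control). The distance stays small for such flat genes, so this rank shows no shared profile. For XBP1 they were LARS1 (0.0833), EEF1AKMT3 (0.0862), ZNF746 (0.0936), NBPF1 (0.0937) and MLLT6 (0.0988), with DNAJB9 at rank 704 (0.196).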

How the data were processed

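Biotin-labelled RNA of 12 samples was read on Affymetrix 3′ expression arrays, per the labels' protocols. The deposited values are linear intensity values, 1 per probe set and array, which the authors had brought to the same 2% trimmed mean (150.02) on every array; Partek 6.5 and RMA appear in the submitters' processing notes, but the values are linear and their distributions differ between arrays, unlike RMA output. Background correction is not given in the sources used here, and no detection calls were used. Values ran from 0.0212 to 17908. The number of arrays limits precision.

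Intensities were log2 transformed and not normalised again. Of 54675 probe sets, 62 were array controls, 41091 carried 1 symbol, 1801 several (unused) and 11721 none; names come from GEO's platform annotation with symbols updated by gene ID, 42 of which were not found. Per symbol the brightest probe set was kept (19775 genes). No arrays held identical values. Group means were fitted with limma 3.58.1 in R 4.3.3 on 11 arrays (7 residual degrees of freedom, prior 1.12, prior SD 0.192 log2), checked on simulated data. The comparisons were each treatment against control, the treatments against each other, and the interaction. Promoters come from RefSeq (GRCh38.p14).

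The members and gene lists were chosen with earlier results of these data known, so their counts are descriptions. Named were all 10 genes, up to 3 called genes of smallest p per list, direction and comparison, and the 5 nearest profiles of HSPA5 and XBP1; HSP90AA1, HSP90AB1 and the other genes bearing an element were named after their values were seen. Alternatives were control replicate 2 included, array weights, replicate number as block, trended robust moderation, quantile or median scaling, a filter on dim genes, probe-set means, only the arrays compared, a stricter threshold and each array left out; testing every probe set, the list counts by setting and the bright-gene background were added after seeing the data.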

Additional observations from a re-analysis of the deposited data

Results flagged for a closer look

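The interaction of the drugs passed the threshold of the fit over all genes (limma) for 3 of the 10 genes, each time with a negative value, where 6.97% of all genes had a negative and 4.82% a positive one. DNAJB9 had an interaction of -0.74, HERPUD1 of -0.65 and EDEM1 of -0.48 on the log2 scale: the change with both drugs lay below the sum of the single-drug changes. The calls held on leaving out 2, 1 and 2 of the 11 arrays in turn, and were lost without control replicate 3. All 3 were also lost with control replicate 2 included, with the replicate block, with each array centred on its median, with probe-set means and with adjustment over all probe sets.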

How the results depend on the processing

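Of 1460 recomputed values of single genes, 1271 stayed on their side of the threshold, 149 lost a call, 37 gained one, and 3 called values turned sign. Of the 1271, 1221 kept their sign and 50 turned it, none of these called as reported or under the alternative (19 with probe-set means, 12 with median centring, 5 with control replicate 2, 1 with array weights and 13 on leaving out an array). The 3 called ones came from averaging a gene's probe sets, which mixes in dim ones: XBP1 became -0.13 with both drugs and -0.27 with the Wee1 inhibitor against control, and the HERPUD1 interaction 0.56. Of the 10 genes, 4, 4 and 3 were called against control with both drugs, the Wee1 inhibitor and 17-AAG, 2 and 3 with both drugs against 17-AAG and against the Wee1 inhibitor, 3 between the single drugs and 3 in the interaction. In that order, including control replicate 2 gave 2, 1, 1, 0, 0, 0 and 0 calls by limma, with 3, 4, 4, 2, 2, 2 and 5 at an unadjusted p below 0.05. An adjusted p below 0.01 left 2 with the Wee1 inhibitor, 1 with 17-AAG, 1 against 17-AAG, 0 against the Wee1 inhibitor, 1 between single drugs and 0 in the interaction. Probe-set means gave 2, 2 and 0 against control and 0 in the interaction (1 and 2 unadjusted for the cases of 0). Fitting only the arrays compared gave 2 with the Wee1 inhibitor, 0 with 17-AAG and 1 in each comparison of treatments; for 17-AAG limma then called 0 of all genes, while 4 of the 10 genes and 4816 genes had an unadjusted p below 0.05. Trended robust moderation gave 5 with 17-AAG, 5 against 17-AAG, 5 against the Wee1 inhibitor and 5 in the interaction. It also raised the calls over all genes, to 4375, 4865, 3699 and 3472 in place of 3309, 3816, 2791 and 2331. Median centring gave 4 against 17-AAG, 1 against the Wee1 inhibitor, 5 between single drugs and 0 in the interaction (4 at an unadjusted p below 0.05). Over all genes it gave 3398, 2280, 3510 and 1614 calls in the same order. Adjusting over all probe sets gave 1 against the Wee1 inhibitor and 0 in the interaction (5 unadjusted). Replicate numbers are shared by the groups, and the arrays were not treated as paired. Deviations from group means correlated at -0.14 to 0.10 between same-numbered arrays (15 pairs) and at -0.18 to 0.18 between different-numbered ones (30 pairs). Deviations of the 2 controls mirror each other, so these values do not settle whether the numbers pair the arrays. The replicate block gave 1 call against 17-AAG, 1 against the Wee1 inhibitor and 0 in the interaction, where 5 had an unadjusted p below 0.05, and 1483 in place of 2331 interaction calls over all genes. Leaving out each array in turn gave 3 to 4 with both drugs, 2 to 4 with the Wee1 inhibitor, 1 to 4 with 17-AAG, 1 to 2 against 17-AAG, 0 to 3 against the Wee1 inhibitor, 2 to 3 between single drugs and 0 to 3 in the interaction. Over all genes, calls against control with both drugs, the Wee1 inhibitor and 17-AAG numbered 5539, 4922 and 3309. With control replicate 2 they numbered 1856, 1268 and 480, and 542, 389, 479 and 119 in the other comparisons in place of 3816, 2791, 3696 and 2331. An adjusted p below 0.01 gave 3592, 2816, 1493, 1932, 1487, 1966 and 828 in the same order. Probe-set means gave 3215 and 1768 with the single drugs, then 2370, 1664, 2283 and 1099. Only the arrays compared gave 2461 with the Wee1 inhibitor and 2307 between single drugs. Without dim genes the interaction gave 3558. Without control replicate 1 or 3, 17-AAG gave 1728 or 1705 and the interaction 1361 or 1350; without 17-AAG replicate 1 they gave 2158 and 1522; without control replicate 3 the Wee1 inhibitor gave 3225.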

Other observations

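Besides the 7 genes described above, 30 genes carried ERSE or ERSE-II in the same promoter window, and 24 of them were measured. With both drugs 6 of the 24 rose and 4 fell, with the Wee1 inhibitor 4 rose and 5 fell, and with 17-AAG 4 rose and 4 fell, with median log2 fold changes of 0.14, -0.08 and -0.01. Over all genes 16.7% were higher and 11.3% lower with both drugs, 14.5% and 10.3% with the Wee1 inhibitor, and 9.93% and 6.8% with 17-AAG, so these counts are given as a description only. ERO1B, an oxidase that feeds disulfide formation, rose by 0.68 ± 0.18 with both drugs, 0.72 ± 0.18 with the Wee1 inhibitor and 1.04 ± 0.18 with 17-AAG. CRELD2, a secreted ER stress protein, fell by 0.52 ± 0.10, 0.35 ± 0.10 and 0.35 ± 0.10. NUCB1, a calcium-binding protein of the Golgi, rose by 0.76 ± 0.17, 0.61 ± 0.17 and 0.85 ± 0.17. HYOU1, an ER relative of Hsp70, had 0.34 ± 0.11, 0.28 ± 0.11 and -0.01 ± 0.11, with none called.

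On control replicate 2, the array that matched the PC3 label in HOXB13, CTNNA1 and STAT3, 6 of the 10 genes lay below all 11 other arrays, 1 above and 3 within. The share of all genes outside the range of the others was not counted. That array also stood apart over all probe sets (correlations of 0.825 to 0.833), so the count is a description only and shows nothing particular to these genes. XBP1 had 718 there, against 1205 to 2097 elsewhere. CANX had 2358, against 4021 to 4875. CALR had 1601, against 1046 to 1492.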
